A study of Homo sapiens with 6 samples.

Results

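The pancreatic lineage transcription factors PDX1, SOX9, HNF4A, GATA4, GATA6, FOXA1, FOXA2 and ONECUT2 were followed through the RNA-seq of PANC-1 cells with silenced ZDHHC20. They were chosen by name, as 8 of the 27394 genes in the deposited table, and all 8 had a row. PANC-1 is an established human pancreatic cancer cell line, and ZDHHC20 is a palmitoyl acyltransferase, an enzyme that attaches the fatty acid palmitate to proteins. Both groups were PANC-1 cells that received an shRNA, either a control (shControl) or one against ZDHHC20 (shZDHHC20), and the labels name no further treatment. Each group had 3 libraries. The labels do not say which shRNA was used, whether the cells were 1 clone or a pool, or whether the 3 libraries came from separate cultures, so p-values measure only the spread between these libraries.

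Lineage factors are proteins that bind DNA and keep the gene program of a tissue in place. In the embryo, FOXA1 and FOXA2 open chromatin as pioneer factors of the endoderm, GATA4 and GATA6 act beside them, and PDX1, SOX9, HNF4A and ONECUT factors then mark and maintain the pancreatic progenitors. In the adult pancreas SOX9 stays on in the ducts and PDX1 is high in beta cells. In pancreatic ductal adenocarcinoma, GATA6 and HNF4A are known as factors of the classical subtype, and their loss is a known feature of basal-like and squamous tumors.

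RNA silencing was first checked on the targeted gene. ZDHHC20 had normalized counts of 2001, 2033 and 1940 in the shControl libraries and 872, 779 and 893 in the shZDHHC20 libraries, 42.6% of the control mean. A normalized count is the number of reads on a gene divided by 1 scaling factor per library. The 6 libraries held between 16575546 and 18441049 reads on genes. Among 22189 genes with means of 1 or more, limma with Benjamini-Hochberg adjustment called 2541, or 11.5%, at an adjusted p under 0.05, of which 6.84% of the genes tested were lower and 4.61% were higher in shZDHHC20. Without shZDHHC20 replicate 2 the number called was 4454 of 22258, or 20%, with 11.1% lower, and that library stood apart from the others of its group. The SD of its log2 differences from replicates 1 and 3 was 0.178 and 0.198, against 0.0722 between those libraries, and 4.01% of its normalized counts were mitochondrial, against 5.28% to 5.52% in the other libraries. The fold changes of the factors and the counts of the gene lists are therefore also given without it.

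The cell line was set against markers of the cell types of the pancreas. Of the 14 ductal markers, 12 had a row, and their summed normalized count was 84794 to 86841 in shControl and 79479 to 81231 in shZDHHC20, led by KRT8, an epithelial keratin whose processed pseudogenes make its count uncertain. MUC1 and EPCAM were called higher and 0 ductal markers were called lower, beside 4.61% and 6.84% of all genes. KRT8 and KRT18 nevertheless had lower means in shZDHHC20, with adjusted p of 0.063 and 0.055 by limma. MUC1, EPCAM and KRT18 were named after their values were seen. Acinar genes were low. The 7 of 14 acinar markers with a row had means under 10 over the 6 libraries, the highest being CEL with group means of 5.03 and 13.7, and their sum was 6.06 to 12.1 in shControl and 27.6 to 33.7 in shZDHHC20. The 5 endocrine markers with a row summed to 150 to 164 and 118 to 132, most of it CHGB. The 6 fibroblast markers summed to 3995 to 4064 and 3204 to 3494, led by the collagen gene COL1A1. COL1A1 was the only fibroblast marker called, lower, beside 6.84% of all genes. Immune markers summed to 44.1 to 55.2 and 45.6 to 73.3, and endothelial markers to 40.0 to 55.6 and 32.9 to 47.7. The part of these shifts in the results for the lineage factors was not tested. All libraries were of PANC-1, and in bulk RNA fewer cells expressing a marker and less RNA per cell cannot be told apart.

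The regions just upstream of 4 of the 8 factors were read from RefSeq on GRCh38.p14, 250 bases before each annotated start. These RefSeq starts differ from the GENCODE starts behind the gene positions below. By GENCODE, the FOXA1 window lies wholly inside the gene and holds 99 exon bases. The GATA6 window has 146 bases inside the gene and holds 180 exon bases, so not all of these belong to GATA6. The downstream HNF4A window lies within the gene but in no exon. The windows without exon bases are printed, for HNF4A, which was almost without reads, and for ONECUT2, which was transcribed and did not pass the test. HNF4A has 2 windows, of which the upstream one lies at the start known for its use in pancreatic islets. Capitals mark matches, on either strand, to short core letters of the families described here. These were TGTTTAC for FOXA, AGATAA for the GATA family, ATCAAT for ONECUT, GTTAAT for HNF1, CAAAGT for HNF4, TAATTA for PDX1, ACAAAG for SOX and CACGTG for the E-box bound by MYC. The HNF4 and SOX letters can overlap. Each is written 5′ to 3′ on the strand of its gene.
HNF4A, upstream start, chr20:44355449-44355698, plus strand: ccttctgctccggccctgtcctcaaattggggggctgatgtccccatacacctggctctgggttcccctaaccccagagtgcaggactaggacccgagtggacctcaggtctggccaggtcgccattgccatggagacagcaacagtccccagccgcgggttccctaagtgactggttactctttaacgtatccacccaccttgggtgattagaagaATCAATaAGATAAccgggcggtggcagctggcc
HNF4A, downstream start, chr20:44400989-44401238, plus strand: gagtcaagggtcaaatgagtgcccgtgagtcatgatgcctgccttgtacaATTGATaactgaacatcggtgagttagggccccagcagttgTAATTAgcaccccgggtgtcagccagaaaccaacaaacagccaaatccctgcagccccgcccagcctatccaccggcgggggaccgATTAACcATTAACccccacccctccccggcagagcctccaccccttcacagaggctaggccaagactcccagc
ONECUT2, chr18:57435124-57435373, plus strand: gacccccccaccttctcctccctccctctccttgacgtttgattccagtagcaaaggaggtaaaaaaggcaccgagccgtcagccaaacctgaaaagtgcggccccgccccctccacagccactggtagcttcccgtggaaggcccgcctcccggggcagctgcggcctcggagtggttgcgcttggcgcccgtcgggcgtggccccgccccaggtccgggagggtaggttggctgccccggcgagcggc

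The upstream HNF4A window held the ONECUT letters 33 bases and the GATA letters 26 bases before the start. The downstream window held the ONECUT letters, the PDX1 letters and a pair of HNF1 matches. FOXA1 held the SOX letters at 3 places, 1 of them overlapping the HNF4 letters, and the GATA6 and ONECUT2 windows held none of the 8 words. Among all 35116 windows in the RefSeq table, 5.58% held the ONECUT letters, 9.17% the GATA letters, 6.23% the HNF1 letters, 4.35% the PDX1 letters, 10.3% the HNF4 letters and 13.7% the SOX letters. The FOXA letters were in 2.98% and the E-box in 6.34% of all windows and in none of the 5 windows of the factors. The CpG count was 8 in each HNF4A window, 16 in GATA6, 20 in ONECUT2 and 26 in FOXA1, against a median of 11 over all windows. A match is a run of letters and not a site of binding.

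PANC-1 cells expressed the 8 factors at very different levels. Because longer genes collect more reads, levels were compared between genes as normalized counts per kilobase of exon. In shControl the level was 998 ± 30.3 for SOX9, 355 ± 21.6 for FOXA2, 111 ± 7.96 for GATA4 and 77.3 ± 2.19 for GATA6 (mean ± SD, n = 3 libraries). The lower members were FOXA1 at 14.8 ± 1.99, ONECUT2 at 6.83 ± 0.90, PDX1 at 3.22 ± 1.21 and HNF4A at 0.183 per kilobase. No neighbours in this order had overlapping ranges, in either group. SOX9 stood at the 97.5th percentile of all genes and HNF4A at the 8.4th. The same order was found in shZDHHC20, from 795 ± 45.9 for SOX9 and 316 ± 20.5 for FOXA2 down to 2.24 ± 0.310 for PDX1. All 8 factors also kept their places when length was taken from the longest transcript. The closest pair was GATA4 and GATA6, whose ratio per kilobase was 1.44 in shControl and 1.18 in shZDHHC20.

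HNF4A and PDX1 were near 0, taken as a mean under 10 normalized counts in both groups. HNF4A, a nuclear receptor of liver, gut and pancreas (ENSG00000101076, chr20:44355700-44434596, plus strand, GRCh38), had 1, 1 and 2 reads in the shControl libraries and 2, 0 and 2 in the shZDHHC20 libraries. The sums of 4 and 4 reads are too few for a fold change. PDX1, a homeobox factor of pancreatic progenitors and beta cells (ENSG00000139515, chr13:27920020-27926231, plus strand), had 8, 11 and 5 reads in shControl and 6, 6 and 5 in shZDHHC20. Its normalized counts were 8.05 ± 3.02 and 5.60 ± 0.775, and the groups overlapped. The log2 fold change was -0.45 with a 95% interval from -1.68 to 0.78 and an adjusted p of 0.692 by limma. A change of PDX1 was not detectable at this depth. The value moved from -0.75 without shControl replicate 3 to -0.19 without shControl replicate 2, and was -0.46 without shZDHHC20 replicate 2.

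SOX9 was the most abundant factor and the only member called. SOX9, an HMG-box factor of duct cells and progenitors (ENSG00000125398, chr17:72121020-72126420, plus strand), had normalized counts of 3981, 3792 and 4013 in the shControl libraries and 3299, 2939 and 3143 in the shZDHHC20 libraries. Every shZDHHC20 library was below every shControl library. The mean fell from 3929 ± 119 to 3127 ± 181 (SD, n = 3 libraries each), to 79.6% of the control, with an exact permutation p of 0.1, two-sided, the smallest that 3 against 3 libraries allow. The log2 fold change was -0.33 (SE 0.054, 95% interval -0.45 to -0.21), with an adjusted p of 0.00146 by limma. SOX9 ranked 527th by p among the 22189 genes. Without shZDHHC20 replicate 2 the log2 fold change was -0.29 with an adjusted p of 6.92e-05 by limma. The call was lost when the variance was modelled without its trend with the mean, with an adjusted p of 0.106 by limma.

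**Figure D1:**
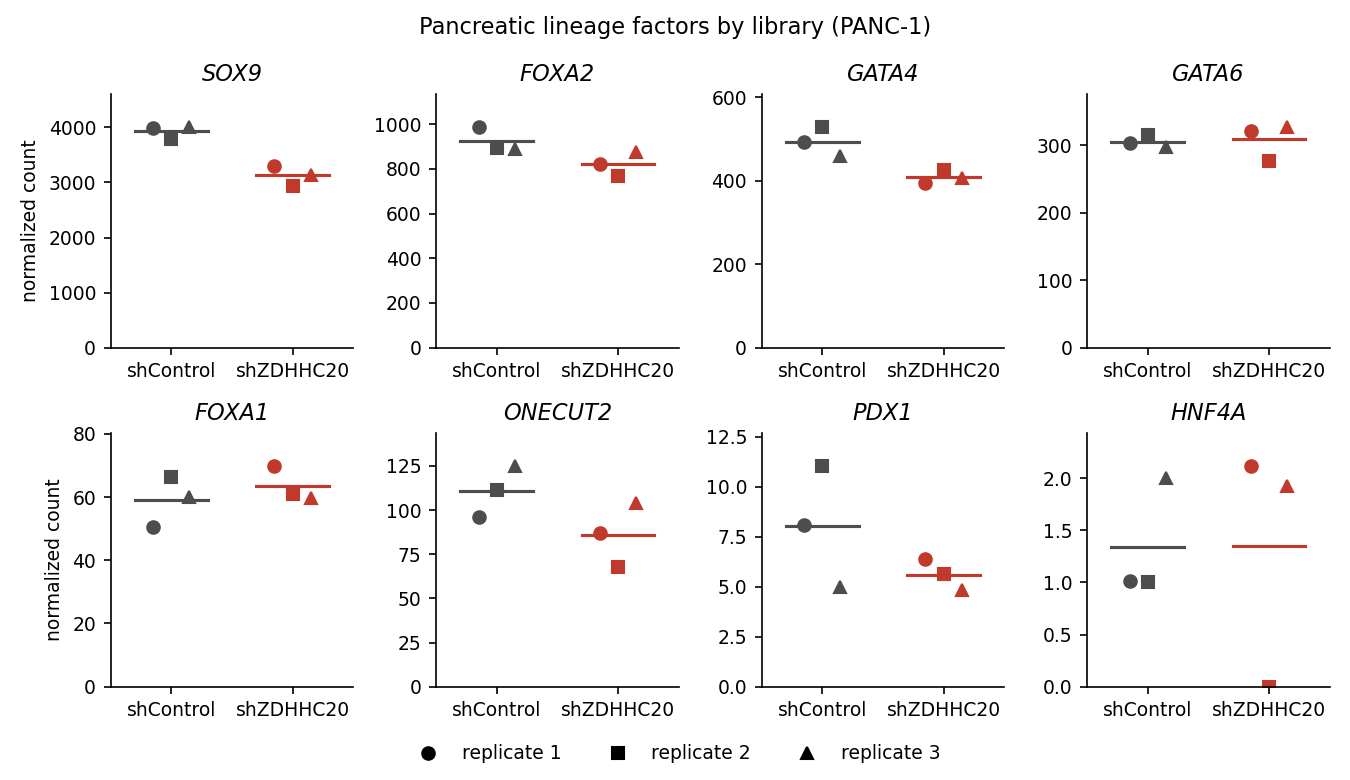
Normalized counts of the 8 factors in each library, with linear axes that start at 0 and differ between panels. Points are libraries, with shapes for replicates 1 to 3, and lines are group means. The shZDHHC20 points (red) lie below all shControl points (grey) for SOX9, FOXA2 and GATA4, and HNF4A stays at or below 2.12 in every library.

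The GATA factors, zinc finger proteins that act early in the endoderm, gave different values. GATA4 (ENSG00000136574, chr8:11676959-11760002, plus strand) had normalized counts of 492, 529 and 459 in shControl and 395, 424 and 405 in shZDHHC20. The highest shZDHHC20 value was below the lowest shControl value, with means of 493 ± 35.4 and 408 ± 14.8. The log2 fold change was -0.27 (SE 0.082, 95% interval -0.45 to -0.09), and the adjusted p of 0.0506 by limma missed the threshold by a small margin. It was 0.0459 with a pseudocount of 1, 0.0358 when genes with a mean under 10 were left out, 0.0445 with robust moderation and 0.0146 without shZDHHC20 replicate 2, by limma, but it stayed above the threshold in the other 13 of 17 alternatives, among them the replicate block (0.0813), quantile normalization (0.0806), no trend (0.173) and leaving out shControl replicate 2 (0.220). The log2 fold change of GATA4 without shZDHHC20 replicate 2 was -0.30. GATA6 (ENSG00000141448, chr18:22169443-22202528, plus strand) had 303, 314 and 297 in shControl and 321, 277 and 327 in shZDHHC20. The groups overlapped, and shZDHHC20 replicate 2 was the lowest of the 6 libraries. The log2 fold change of GATA6 was 0.01 with a 95% interval from -0.19 to 0.22, and the adjusted p was 0.960 by limma. Changes of GATA6 below -0.19 or above 0.22 on the log2 scale lie outside this interval. The log2 fold change of GATA6 without shZDHHC20 replicate 2 was 0.09, with an adjusted p of 0.541 by limma. Whether GATA4 and GATA6 differed in their response was not tested.

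The FOXA factors are forkhead proteins that bind closed chromatin. FOXA2 (ENSG00000125798, chr20:22581005-22585455, minus strand) had normalized counts of 989, 893 and 891 in shControl and 821, 769 and 876 in shZDHHC20. The groups did not overlap, but the gap between the lowest shControl and the highest shZDHHC20 library was small. The mean was 924 ± 56.2 against 822 ± 53.3, or 88.9% of the control, and the log2 fold change was -0.17 (95% interval -0.33 to -0.01). The adjusted p was 0.171 by limma, and without shZDHHC20 replicate 2 the log2 fold change was -0.12 with an adjusted p of 0.215. FOXA1 (ENSG00000129514, chr14:37589984-37596059, minus strand) had 50.5, 66.3 and 60.1 in shControl and 70.0, 61.0 and 59.7 in shZDHHC20, and these ranges overlapped. Its log2 fold change was 0.11 (95% interval -0.29 to 0.52), with an adjusted p of 0.775 by limma, and was 0.14 without shZDHHC20 replicate 2. Per kilobase, FOXA2 was the higher of the pair in every library, and FOXA3 was near 0 with means of 1.34 and 2.21.

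ONECUT2, a homeobox factor of the family that acts in liver and pancreas development (ENSG00000119547, chr18:57435685-57491297, plus strand), had normalized counts of 96.0, 111 and 125 in shControl and 86.9, 67.6 and 104 in shZDHHC20. The ranges overlapped only through shControl replicate 1 and shZDHHC20 replicate 3. The mean was 111 ± 14.6 against 86.2 ± 18.2, or 77.7% of the control. The log2 fold change of -0.38 was larger than that of SOX9, but its SE was 0.181, the 95% interval ran from -0.77 to 0.01 and the adjusted p was 0.226 by limma. Without shZDHHC20 replicate 2, its lowest library, the log2 fold change was -0.21.

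**Figure D2:**
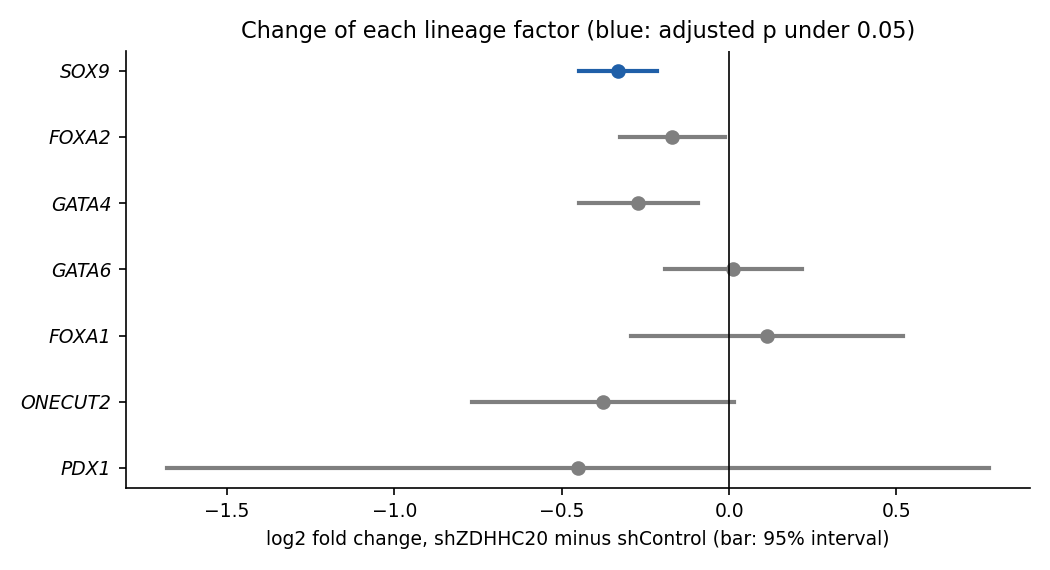
Log2 fold change of shZDHHC20 minus shControl for the 7 factors other than HNF4A, with 95% intervals from limma as bars. The interval of SOX9 (blue) is the only one with an adjusted p under 0.05, that of PDX1 is the widest, and HNF4A is left out because it had 4 reads in each group.

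Counted together, 1 of the 8 factors was called, lower, and 0 were higher, against 11.5% of all genes in either direction, 6.84% lower and 4.61% higher. At an unadjusted p under 0.05 from limma 3 were lower, against 12.6% of all genes. On the recovered reads edgeR and DESeq2 each called 1, against 12.3% and 12.0% of all genes. For DESeq2 the genes without an adjusted p, among them PDX1 and HNF4A, were counted as not called. The groups did not overlap for 3 of the 8, all lower in shZDHHC20, against 28.6% of all genes. By the criteria given for these libraries, an unadjusted p under 0.01 and a fold of at least 1.5, 0 of the 8 passed, against 2.45% of all genes. The median of the log2 fold changes of the 6 factors with a mean of at least 10 was -0.22, beside -0.00016 over the 15101 genes that reached this mean. Without shZDHHC20 replicate 2, 2 of the 8 were called, SOX9 and GATA4, both lower, while the share of all genes called rose to 20%, and to 11.1% lower.

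**Figure D3:**
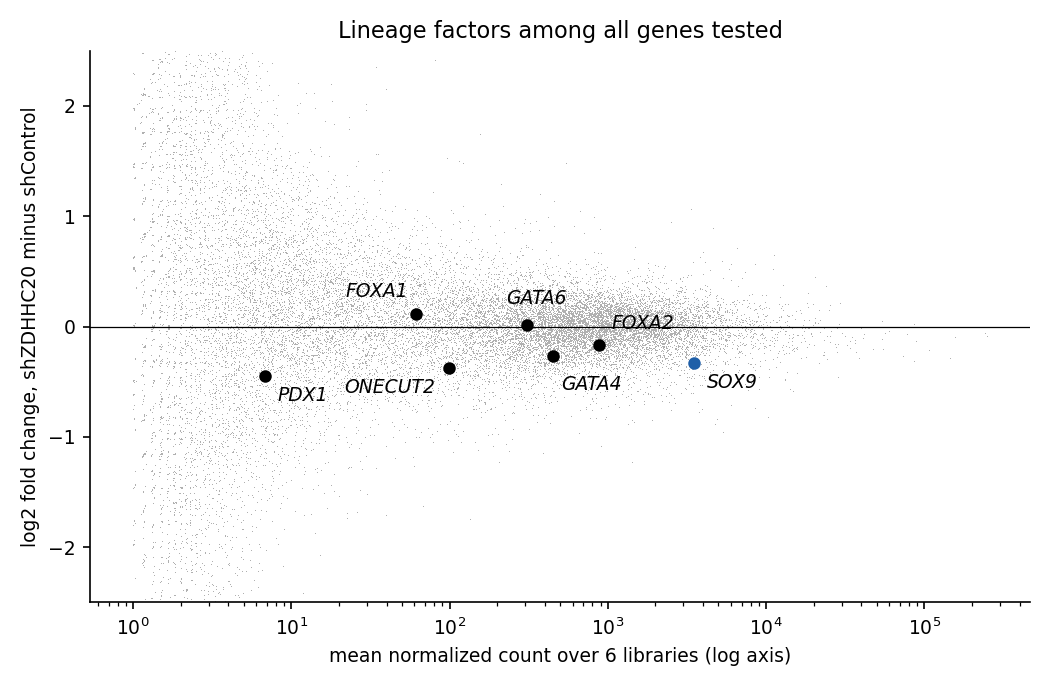
Log2 fold change of shZDHHC20 minus shControl against the mean normalized count over 6 libraries (log axis) for all 22189 genes tested (grey), with 7 factors as large points and SOX9, the only one called, in blue. The spread of all genes narrows with the mean, PDX1 lies in the wide part, and 784 genes lie beyond the axis limits of 2.5.

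Each library was left out in turn. SOX9 stayed between -0.37 and -0.29 and was called each time, and FOXA2 stayed between -0.22 and -0.12 and was called in 0 of the 6 fits. GATA4 stayed between -0.32 and -0.22. GATA6 changed sign, between -0.03 and 0.09, and FOXA1 ran from 0.0067 to 0.20.

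Neighbouring and antisense transcripts were looked at because they can share reads with the factors. SOX9-AS1, on the opposite strand of SOX9 with 0 shared exon bases, had 11.1, 14.1 and 16.02 in shControl and 28.6, 20.7 and 20.2 in shZDHHC20. These ranges did not overlap, as for 28.6% of all genes, and the adjusted p was 0.210 by limma. GATA6-AS1 shares 240 exon bases with GATA6 on the opposite strand and had values of 8.66 to 18.2 over the 6 libraries. AC091588.3, also opposite GATA6, shares 321 exon bases and had at most 3.03, and TTC6, opposite FOXA1, shares 16 and had at most 5.77. AL121722.1 shares 70 exon bases with FOXA2 on the same strand and has no row, so reads on those bases cannot be assigned to either gene with certainty. The libraries were made with a strand-specific kit, but whether strand was used in counting is not given in the sources used here, so shared bases could count for either gene. LINC00511, a long noncoding RNA near SOX9, had means of 1033 and 1109, with an adjusted p of 0.371 by limma. No transcript of this list of 10, of which 4 had a row and 3 were tested, was called by limma, beside 11.5% of all genes. The count was also 0 without shZDHHC20 replicate 2, beside 20% of all genes.

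Relatives of the 8 factors were listed to see which paralogs the cells use. Of 10 relatives, 8 were tested, 1 was higher and 1 was lower, beside 4.61% and 6.84% of all genes, and the median of the log2 fold changes was -0.02 for the 5 with a mean of at least 10. ONECUT3 had between 242 and 278 normalized counts per kilobase in the 6 libraries, far above ONECUT2, and its normalized counts had means of 2129 ± 40.2 and 2185 ± 153, while ONECUT1 was near 0 at 3.70 and 0.321. GATA3, a factor of the lymphoid and luminal epithelial lineages, rose from 272 ± 16.5 to 343 ± 25.3 (log2 fold change 0.33, SE 0.096, adjusted p 0.0388 by limma). GATA2 and GATA5 had means of 313 and 311, and of 371 and 347, so that GATA2, GATA3, GATA4, GATA5 and GATA6 were all present. SOX8, of the same subgroup as SOX9 and SOX10, fell from 185 ± 11.5 to 123 ± 9.68 (log2 fold change -0.59, SE 0.122, adjusted p 0.00699 by limma), while SOX10 had means under 1. The count for this list ran from 0 to 2 when each library was left out. It was 0 without shControl replicate 1, where 1233 of 22244 genes were called, and 2 without shZDHHC20 replicate 2, where 20% of all genes were called.

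Other factors of progenitors and ducts were called at about the share of all genes. Of 23 listed, 20 had a row, 18 were tested, and 1 was higher and 1 lower, beside 11.5% of all genes in either direction. ELF3, an epithelial ETS factor, rose from 1138 ± 39.0 to 1621 ± 125 (log2 fold change 0.51, SE 0.066, adjusted p 0.000270 by limma). TEAD1, the DNA-binding partner of YAP, fell from 4271 ± 103 to 3787 ± 31.4 (log2 fold change -0.17, SE 0.046, adjusted p 0.0256 by limma). SOX4, the second highest of this list by normalized count, had means of 2565 and 2669. The median of the log2 fold changes was 0.0042 for the 13 with a mean of at least 10, and the count was 3 without shZDHHC20 replicate 2, beside 20% of all genes. Of the 6 acinar factors, 4 were tested and 0 were called by limma, and the secretory factor XBP1 had means of 1533 and 1464. BHLHA15, the acinar factor also known as MIST1, was near 0 at 2.35 and 6.95. Of the 17 endocrine factors, 9 were tested and 0 were called by limma, with ETV1 at 398 and 335 and RFX3 at 175 and 139. Without shZDHHC20 replicate 2 the acinar and endocrine counts were also 0 by limma.

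The genes by which pancreatic tumors are sorted into subtypes were then counted, beside the 4.61% of all genes that were higher and the 6.84% that were lower. Of 24 classical genes, 17 had a row, 9 were tested, and AGR2 alone was called, with a median of 0.43 for the log2 fold changes of the 5 with a mean of at least 10. AGR2, a protein disulfide isomerase of mucus-secreting cells, rose from 2422 ± 52.6 to 3271 ± 153 (log2 fold change 0.43, SE 0.052, adjusted p 0.000148 by limma), and TSPAN8, the second highest, had means of 39.2 and 51.1. Of 25 basal-like genes, 11 were tested, 3 were higher and 1 was lower, and the median of the log2 fold changes was 0.08 for the 8 with a mean of at least 10. The EGFR ligand AREG rose from 112 to 223 and the focal adhesion gene TNS4 from 146 to 245, with adjusted p of 0.000722 and 0.0018 by limma. FGFBP1, a carrier of fibroblast growth factors, rose from 2.01 to 13.9, and the calcium-binding S100A2 fell from 57.3 to 30.0, with adjusted p of 0.0160 and 0.0350 by limma. The glucose transporter gene SLC2A1 and the protease gene CTSV, the highest of this list, were not called. Of 16 squamous and mesenchymal factors, 14 were tested, 0 were higher and 3 were lower, and the median over the 10 with a mean of at least 10 was -0.24. GLI2, a Hedgehog effector, fell from 551 to 364, ZEB1, a repressor of epithelial genes, from 595 to 487, and RUNX2 from 440 to 346, with adjusted p of 0.000270, 0.0200 and 0.0199 by limma. HMGA2 and TFAP2A, the highest of these, were not called. Without shZDHHC20 replicate 2, where 20% of all genes were called, the counts were 1 classical, 4 basal-like and 5 squamous or mesenchymal genes. The last was 1 without shControl replicate 1 or 3, where 1233 of 22244 and 1233 of 22213 genes were called. Of 15 hepatic and intestinal genes, among them many known targets of HNF4A, 7 had a row and 6 of these were near 0. The intestinal factor CDX2 was the highest at 12.7 and 9.23, followed by LGR5 at 4.02 and 7.31, and 0 of the 3 tested were called by limma. The count of this list was also 0 without shZDHHC20 replicate 2.

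Finally, the genes whose log2 values over the 6 libraries were most like those of a factor were listed, among 10907 genes with means of 100 or more. Likeness is Pearson's r over 6 libraries in 2 groups, given as a description, and a gene that differs between the groups can reach a high r through that difference alone. The highest of many r values over 6 libraries can also be high through this choice alone. For SOX9 these were RAB3B (r = 0.997), ARFGEF2 (0.995) and HHIPL2 (0.995), which were lower in shZDHHC20 with log2 fold changes of -0.70, -0.39 and -0.53. For GATA4 they were OSBP2 (0.996), F12 (0.988) and RPS3A (0.985), of which RPS3A has many pseudogenes that could share its reads. For GATA6, which was lowest in shZDHHC20 replicate 2, they were PHLDB2 (0.995), IDS (0.994) and PPP2CA (0.991), whose log2 fold changes lay within 0.01 of 0. For FOXA2 they were HMGN3 (0.992), CTNND1 (0.989) and C17orf75 (0.988). Among the factors themselves, SOX9 and FOXA2 were most alike over the 6 libraries (r = 0.82).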

How the data were processed

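RNA-seq libraries of PANC-1 cells, 3 shControl and 3 shZDHHC20, were analysed from the table that the authors deposited. The authors deposited 1 normalized signal per gene and library under the name FPKM. Within a library all values above 0 are whole multiples of the smallest (within 0.01), as gene counts divided by 1 scaling factor are, and reads were recovered from these steps. Gene counts were thus not divided by length. Every gene with a row had reads in some library. For a listed gene without a row, it cannot be told whether it had no reads or was not annotated. The submitters' processing notes name hg19, while the aligner, counter and annotation are not given in the sources used here. Columns named NC and siZDHHC20 were matched to shControl and shZDHHC20 by group and number.

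Values were tested as log2(normalized count + 0.1) over 22189 genes with a mean of at least 1. On this scale a library at 0 can move the log2 fold change of a low gene strongly in either direction. The fit used limma 3.58.1 in R 4.3.3 (lmFit, eBayes with trend), two-sided, with Benjamini-Hochberg adjustment over all genes and a threshold of 0.05. Exact permutation tests used the 20 assignments of 6 libraries. Counts per kilobase used the union of exons in GENCODE 29 on GRCh38, which matched 27394 of 27394 identifiers and gave all gene positions, and 250-base upstream windows came from RefSeq on GRCh38.p14. Also tried were other pseudocounts (1 and 0.01), other filters (none, or a mean of at least 10), scaling by median ratios or quantiles, no trend, robust moderation, a replicate block, edgeR 4.0.16 and DESeq2 1.42.0 on the recovered reads, and leaving out each library. On simulated data for this comparison, 200 genes were changed 2-fold among 22239 genes tested. Of these, limma recovered 195 with 1 unchanged gene called, and edgeR recovered 197 with 5. The simulation changed only genes above a floor of reads, gave all genes the same spread beyond counting and held no library that stood apart. How often changes of the size seen for the factors would be found was not tested.

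The members and all gene lists were chosen with earlier results of these data known, so lists are described by counts and medians only. The genes named are the 8 factors, the targeted gene, in each list the members called (at most 6) and the 2 with the highest mean, and for each factor with a mean of at least 100 the 3 most alike genes. Other relatives of the factors and MUC1, EPCAM, KRT18 and CEL were named after their values were seen.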

Additional observations from a re-analysis of the deposited data

How the results depend on the processing

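The number of genes called was 351 with no mean-variance trend, against 2541, and it ran from 1233 (without shControl replicate 1 or 3) to 4454 (without shZDHHC20 replicate 2) when each library was left out. Of the 8 factors, 2 were called with a pseudocount of 1, beside 2719 of 22189 genes. Also 2 were called with a mean of at least 10 (beside 2936 of 15101 genes) and with robust moderation (beside 2786 of 22189). With no trend 0 were called, beside 351 of 22189 genes, and with each library left out 1 to 2, beside 1233 to 4454 genes. SOX9 (-0.33) missed the threshold with no trend and was called in the other 16 of 17 alternatives. GATA4 (-0.27) passed in 4 of 17 alternatives, with a pseudocount of 1, a mean of at least 10, robust moderation and without shZDHHC20 replicate 2, had adjusted p from 0.0146 to 0.220 by limma over all of them, and ran from -0.32 to -0.22 with each library left out. GATA6 ran from -0.031 to 0.089, with its sign changed without shControl replicate 3 (-0.005) and without shZDHHC20 replicates 1 (-0.018) and 3 (-0.031). FOXA1, FOXA2, ONECUT2 and PDX1 were never called and kept their direction. With no trend, where 351 of 22189 genes were called, the counts were 0 for progenitor and ductal factors, relatives, classical genes and basal-like genes. The count was 1 for squamous and mesenchymal factors. With each library left out, when 1233 to 4454 genes were called, the list counts ran from 1 to 3 for progenitor and ductal factors and 0 to 2 for relatives. They ran from 2 to 4 for basal-like genes (2 without shZDHHC20 replicate 1 or 3) and 1 to 5 for squamous and mesenchymal factors. The cause was not tested. Same-numbered libraries did not deviate together (correlations of -0.095, -0.16 and -0.077), and libraries of different number had correlations from -0.092 to 0.15. With 3 libraries per group this cannot decide whether the numbers pair them. A replicate block called 1942 of 22189 genes, 1 progenitor or ductal factor and 1 relative, with SOX9 at an adjusted p of 0.00287 by limma. PDX1 and HNF4A could not be fitted at a mean of at least 10, and DESeq2 gave them no adjusted p. Depth limits both, at 0 to 11 reads per library.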
